A study of Mus musculus with 20 samples.

Results

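The 9 genes described here encode chemokine and formyl peptide receptors of mouse bone marrow-derived macrophages. They are Ccr1, Ccr2, Ccr3, Ccr7, Ccrl2, Cx3cr1, Cxcr4, Fpr1 and Fpr2, each matched by its symbol to 1 of the 17787 genes in the deposited table. All 9 were among the 12061 genes past the filter on low values, which asked for 3 or more libraries with normalized counts of 10 or above. Marrow of male wild-type C57BL/6J mice was differentiated into macrophages in medium with L929 cell supernatant, a source of the growth factor that drives macrophage differentiation. The cells then received 50 nM siRNA for 48 h, either a control siRNA or an siRNA against Brg1. Brg1 is the product of Smarca4 and the motor subunit of BAF, a complex that moves nucleosomes. During the last 6 h they were given vehicle (ethanol and buffered saline), 100 ng/ml LPS with ethanol, or 1 µM Dex together with 100 ng/ml LPS. Control siRNA with vehicle, LPS and Dex+LPS had 3, 3 and 4 libraries, and Brg1 siRNA with the same treatments had 3, 3 and 4. Each siRNA was 1 product, and the labels do not say whether replicates came from separate mice or cultures, so the spread behind each p-value is that of these libraries and may be technical.

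Chemokine receptors are G protein-coupled receptors of the cell surface that steer leukocytes along gradients of small secreted proteins. Formyl peptide receptors do the same for peptides that begin with a formylated methionine, which bacteria and damaged mitochondria release. LPS, a component of the outer membrane of Gram-negative bacteria, activates macrophages through Toll-like receptor 4, and Dex (dexamethasone) is a synthetic glucocorticoid that dampens this activation. Activated macrophages are known to change the set of chemoattractant receptors they carry, which alters the signals they can follow.

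Ccr1, Ccr3 and Ccr2 lie in this order in a cluster on chromosome 9, in the GRCm38 build as annotated by GENCODE M21. Ccr1 occupies chr9:123962124-123968692 on the minus strand, Ccr3 chr9:124021972-124031689 and Ccr2 chr9:124101950-124113557, both on the plus strand. Ccrl2 (chr9:111054486-111057519) and Cx3cr1 (chr9:119901616-120069879) lie on the minus strand of the same chromosome, outside that cluster. Fpr1 (chr17:17876471-17883940, minus strand) and Fpr2 (chr17:17887824-17893952, plus strand) are a divergent pair whose annotated starts are 3.88 kb apart. Cxcr4 lies at chr1:128588199-128592293 and Ccr7 at chr11:99144196-99155077, both on the minus strand.

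The promoters of 4 of these genes are printed here because their transcripts show the 3 patterns that the results turn on. Ccr3 fell most with Brg1 siRNA in vehicle, Cxcr4 did not pass the test with Brg1 siRNA in any treatment, and Fpr1 and Fpr2 rose most with LPS. Each sequence is the 250 bases before the RefSeq start site in GRCm38.p6, written 5′ to 3′ in the direction of transcription, with matches to a searched motif in capitals.
Ccr3 (chr9:124021721-124021970, plus strand): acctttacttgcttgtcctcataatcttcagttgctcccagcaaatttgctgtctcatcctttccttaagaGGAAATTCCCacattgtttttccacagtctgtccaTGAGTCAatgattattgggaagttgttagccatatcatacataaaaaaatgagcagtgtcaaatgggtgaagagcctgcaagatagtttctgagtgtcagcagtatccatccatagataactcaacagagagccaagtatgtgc
Cxcr4 (chr1:128592300-128592549, minus strand): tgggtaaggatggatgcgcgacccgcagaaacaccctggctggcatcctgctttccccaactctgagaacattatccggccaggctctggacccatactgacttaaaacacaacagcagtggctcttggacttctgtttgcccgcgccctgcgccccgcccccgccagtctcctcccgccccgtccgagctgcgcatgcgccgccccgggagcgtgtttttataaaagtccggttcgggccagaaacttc
Fpr1 (chr17:17883940-17884189, minus strand): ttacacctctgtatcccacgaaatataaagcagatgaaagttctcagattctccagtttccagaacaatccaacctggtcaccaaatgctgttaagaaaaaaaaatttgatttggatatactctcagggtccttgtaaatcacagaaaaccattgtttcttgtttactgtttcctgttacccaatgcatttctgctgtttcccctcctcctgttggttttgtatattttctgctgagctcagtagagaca
Fpr2 (chr17:17887574-17887823, plus strand): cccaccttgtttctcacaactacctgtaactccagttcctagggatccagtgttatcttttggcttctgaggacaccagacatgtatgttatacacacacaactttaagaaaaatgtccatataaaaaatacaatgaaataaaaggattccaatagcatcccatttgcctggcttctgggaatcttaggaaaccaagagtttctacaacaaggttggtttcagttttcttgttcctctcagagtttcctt

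The RefSeq table matched 8 of the 9 genes, with 3 start sites for Ccrl2. The 6 motifs searched on both strands were a kappaB motif (GGG, any 2 bases, TTTCC), an AP-1 motif (TGANTCA), a glucocorticoid response element (G, any base, ACA, any 3 bases, TGT, any base, C), an interferon-stimulated response element (2 runs of GAAA with any 2 bases between them), a C/EBP motif (TTGCNNAA) and a PU.1 motif (GAGGAAGT). These motifs are held by 1.41%, 6.75%, 0.387%, 2.98%, 9.56% and 2.44% of all 32851 promoters of the same length. Only the Ccr3 promoter among the windows of the 8 genes held a match. GGAAATTCCC, the reverse complement form of the kappaB motif, lies at positions -179 to -170 from the start site, and TGAGTCA of the AP-1 motif at -144 to -138. The 2 matches do not overlap. A match is a run of letters and was not tested for binding.

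The promoters also differed in base composition, which the choice of genes did not use. The Cxcr4 promoter had 61.2% G and C and 19 CpG dinucleotides, a number that 82.1% of all promoters do not exceed. The Ccr3 and Fpr2 promoters had 0 CpG dinucleotides, with 40.4% and 38.8% G and C. The Ccr1, Ccr2 and Fpr1 promoters had 1 CpG each, Cx3cr1 had 4, and the 3 Ccrl2 windows had 5 to 7. The median of all promoters was 6 CpG dinucleotides and 52.4% G and C.

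Library depth was 13.69 to 18.71 M reads. Smarca4 had 1547 ± 75.6, 2880.0 ± 121 and 1966 ± 186 normalized counts (SD, n = 3, 3 and 4) with control siRNA in vehicle, LPS and Dex+LPS, against 354 ± 12.9, 594 ± 31.2 and 458 ± 44.0 with Brg1 siRNA. All 10 macrophage markers on the list passed the filter, and their summed level was 307077 to 366926 per library with control siRNA and 404911 to 535425 with Brg1 siRNA. Lyz2 and Mpeg1 made up most of that sum, and in vehicle the means of Csf1r (29199 with control and 24756 with Brg1 siRNA), Adgre1 (29910.2 and 27804) and Cd14 (3944 and 2604) were in the opposite order. Control siRNA Dex+LPS replicate 2 stood apart from its own group (chi-square per degree of freedom 34.2 to 44.8 against the other 3 libraries), as did Dex+LPS replicate 4 of either siRNA (19.3 to 27.2 against the remaining libraries). In all other pairs within a group the value was 4.20 to 17.5. The number in the description label is above 18000 in 4 libraries, 1 in each LPS and Dex+LPS group and none in vehicle. Receptor results whose call changed without them are given both ways. In RNA from a whole culture, fewer cells of a type and less RNA per cell cannot be told apart.

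With LPS the receptor repertoire of control siRNA macrophages was turned over. All 9 genes passed the test, 4 higher (Ccr7, Ccrl2, Fpr1, Fpr2) and 5 lower (Ccr1, Ccr2, Ccr3, Cx3cr1, Cxcr4), where 73.0% of the 12061 tested genes passed in this comparison (36.0% higher and 37.0% lower). The test throughout was limma-trend on log2(normalized count + 1), with Benjamini-Hochberg adjustment over all tested genes and a threshold of 0.05, and fold changes are on that scale. The median size of the log2 change was 4.92 over the 9 genes and 0.85 over all tested genes. With Brg1 siRNA, 7 of 9 passed, 5 higher (the same 4 and Ccr3) and 2 lower (Cx3cr1 and Cxcr4), against 72.8% of all tested genes. Ccr7, Fpr1 and Fpr2 would not pass the filter on low values from their vehicle libraries alone, so the filter favours their rises with LPS. Cx3cr1 would not pass it without its vehicle libraries, so the filter favours its fall. The counts of higher and lower receptors and the median size are to be read with this limit.

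**Figure D1:**
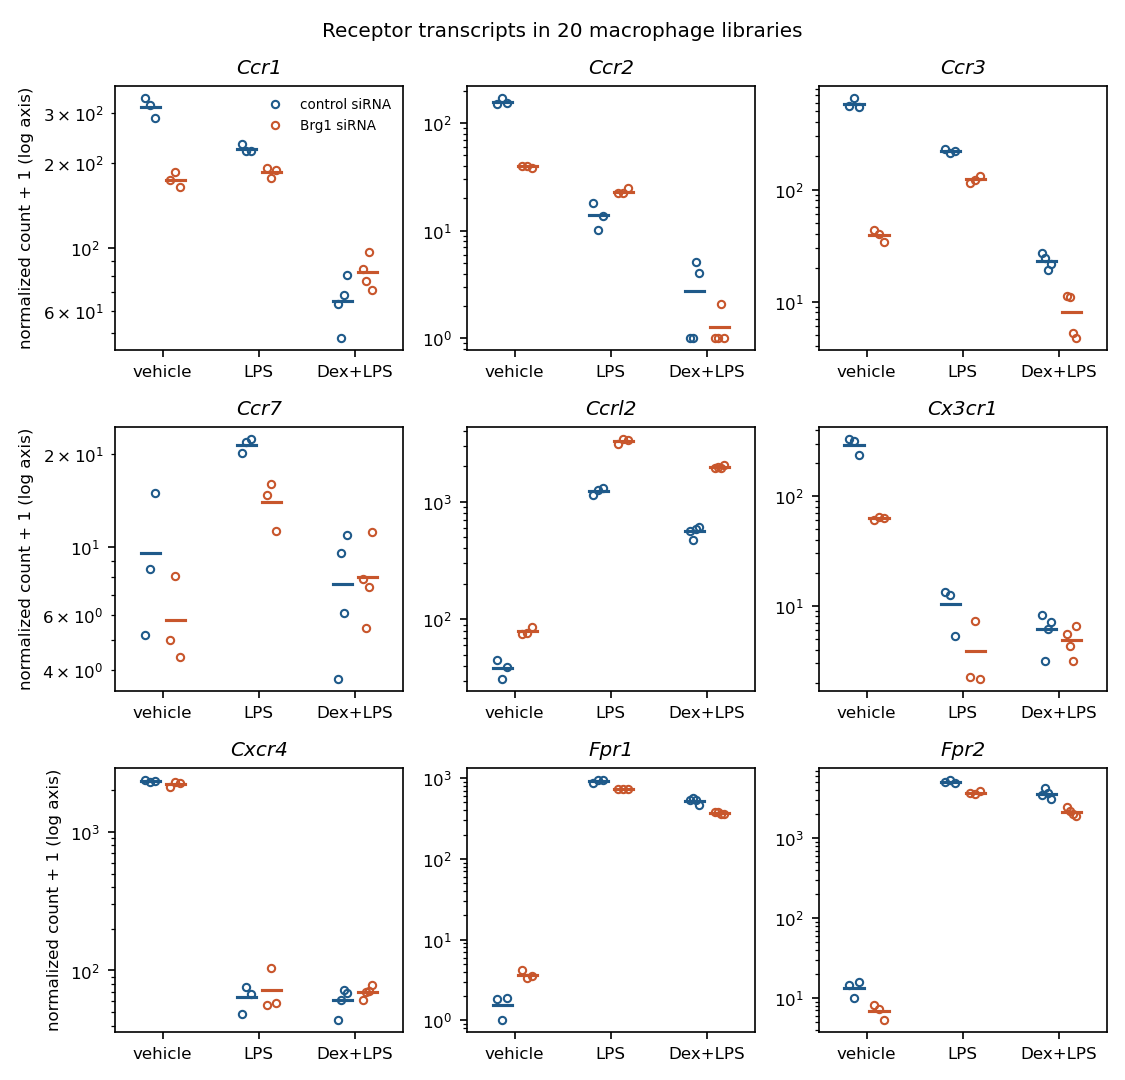
Normalized count + 1 (log axis) of each receptor gene in the 20 libraries, by treatment, with control siRNA in blue and Brg1 siRNA in orange. Circles are single libraries and bars are group means. Cxcr4 fell from 2129.5 or more in vehicle to 103 or less in LPS with either siRNA, and Ccr3 sat at 542 to 657 in control vehicle libraries against 33.3 to 42.3 with Brg1 siRNA.

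Levels were ordered between genes only per kilobase of the longest coding transcript, as the mean normalized count per kilobase. In control siRNA vehicle libraries the order was Cxcr4 (1295), Ccr3 (178), Ccr1 (111), Cx3cr1 (65.2), Ccr2 (27.5), Ccrl2 (15.3), Fpr2 (11.0), Ccr7 (4.32) and Fpr1 (0.431). Only Ccrl2 and Fpr2, among neighbours in that order, overlapped between libraries. In control siRNA LPS libraries the order became Fpr2 (4484), Fpr1 (695), Ccrl2 (502), Ccr1 (78.9), Ccr3 (67.3), Cxcr4 (34.9), Ccr7 (10.3), Ccr2 (2.27) and Cx3cr1 (2.10), and only the last pair overlapped. Cxcr4 thus led in vehicle and Fpr2 in LPS. With Brg1 siRNA, Ccr3 (11.7 per kilobase) stood in vehicle behind Cxcr4 (1238), Ccr1 (61.1), Ccrl2 (31.7) and Cx3cr1 (13.7), and Ccrl2 (1335) stood above Fpr1 (557) in LPS.

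Cxcr4, the receptor for Cxcl12 that holds leukocytes in the bone marrow, had normalized counts of 2374, 2297 and 2344 in control siRNA vehicle libraries and 47.4, 75.2 and 66.3 in LPS. With Brg1 siRNA the values were 2129.5, 2309 and 2266 in vehicle and 54.9, 103 and 56.8 in LPS. The vehicle and LPS libraries did not overlap with either siRNA, while the 2 siRNAs overlapped within each treatment. The log2 change with LPS was -5.22 (SE 0.218, adjusted p = 1.86e-13) with control siRNA and -5.005 (SE 0.218, adjusted p = 3.26e-13) with Brg1 siRNA.

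Cxcr4 did not pass the test for the knockdown in any treatment. The log2 differences between Brg1 and control siRNA were -0.07 in vehicle (95% interval -0.53 to 0.39), 0.15 in LPS (-0.31 to 0.61) and 0.22 in Dex+LPS (-0.17 to 0.62). Dex+LPS gave 42.6, 59.8, 71.2 and 67.3 with control siRNA against 60.6, 69.1, 70.5 and 77.6 with Brg1 siRNA, a range that overlapped the LPS libraries. The log2 difference of Dex+LPS from LPS was -0.06 (95% interval -0.49 to 0.37) with control siRNA and 0.01 (-0.42 to 0.44) with Brg1 siRNA.

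Cx3cr1 encodes the receptor for the membrane-bound chemokine Cx3cl1 and marks patrolling monocytes and many tissue macrophages. Its normalized counts in vehicle were 329.8, 316 and 233 with control siRNA against 59.8, 63.3 and 62.2 with Brg1 siRNA. The groups did not overlap, and the log2 difference was -2.21 (SE 0.476, adjusted p = 0.00253). With LPS it fell with either siRNA, to 12.4, 11.6 and 4.28 with control siRNA (log2 change -4.92, adjusted p = 3.50e-08) and to 1.25, 6.23 and 1.14 with Brg1 siRNA (log2 change -4.27, adjusted p = 2.34e-07).

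In LPS the knockdown difference of Cx3cr1 was -1.56 (SE 0.476, adjusted p = 0.0172), although Brg1 siRNA replicate 2 lay above the lowest control library. That difference rests on 25 reads over the control group and 7 over the Brg1 group. The call was lost without control LPS replicate 1 or 2 or Brg1 LPS replicate 1 or 3 (adjusted p = 0.0767, 0.0672, 0.0781 and 0.0829), and in a fit of only the groups compared (adjusted p = 0.113). Brg1 LPS replicate 2 and control LPS replicate 3 are libraries numbered above 18000, and without all 4 such libraries the log2 difference was -2.57 (adjusted p = 0.000381). In Dex+LPS the values were 7.25, 2.14, 5.09 and 6.12 against 4.58, 3.34, 2.14 and 5.54, and the groups overlapped (log2 difference -0.29, SE 0.413, adjusted p = 0.625). The change from LPS to Dex+LPS did not pass with either siRNA, though without the libraries numbered above 18000 it was -1.27 with control siRNA (adjusted p = 0.0128). Part of the annotated exons of Cx3cr1, 78 bases, is shared with the antisense gene Gm33858, and the strand setting of the counting is not given in the sources used here.

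Brg1 siRNA lowered Ccr1, Ccr2 and Ccr3 of the chromosome 9 cluster in vehicle, and Ccr3 most. Of the 9 receptor genes, 7 passed the test for the knockdown in vehicle, 2 higher (Ccrl2 and Fpr1) and 5 lower (Ccr1, Ccr2, Ccr3, Cx3cr1 and Fpr2), where 20.1% of all tested genes passed (9.39% higher and 10.8% lower). The same 7 did not overlap between the siRNAs, as was the case for 46.1% of all tested genes. The median log2 difference was -0.86 over the 9 genes and 0.01 over all tested genes.

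Ccr3, the receptor for eotaxins that is best known from eosinophils, had normalized counts of 552, 657 and 542 in control siRNA vehicle libraries and 42.3, 39.1 and 33.3 with Brg1 siRNA. Every control library was more than 10-fold above every Brg1 library. The log2 difference was -3.90 (SE 0.271, adjusted p = 1.56e-08), a 14.9-fold lower level, the largest among the 9 genes in any of the 3 knockdown comparisons. The difference was between -3.97 and -3.77 under all 30 alternatives. Of 10 listed eosinophil, basophil and mast cell markers, only 4 had a row in the table (Prg2, Cpa3, Ms4a2 and Gata2). These 4 summed to 0 to 3.495 normalized counts in every library, and none of the 10 listed passed the filter. The part of such cells in the Ccr3 result was not tested.

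With LPS, Ccr3 moved in opposite directions with the 2 siRNAs. Control siRNA libraries fell from 542 to 657 in vehicle to 231, 209 and 220.3 (log2 change -1.40, SE 0.271, adjusted p = 0.000160), and Brg1 siRNA libraries rose from 33.3 to 42.3 to 113, 122 and 132 (log2 change 1.66, SE 0.271, adjusted p = 2.53e-05). Neither pair of groups overlapped. The difference of the 2 responses was 3.06 on the log2 scale (SE 0.384, adjusted p = 3.35e-05), in a comparison that 11.4% of all tested genes passed (6.39% higher and 5.05% lower). Of the 9 receptor genes, 3 passed it, Ccr3 and Ccr2 higher and Fpr1 lower. For Ccr3 it was 2.95 to 3.13 under the 30 alternatives and passed in each of them.

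Ccr3 was still lower with Brg1 siRNA in LPS, by less than in vehicle. The log2 difference was -0.84 (SE 0.271, adjusted p = 0.0230). This call was lost in 5 of 30 alternatives, namely without control LPS replicate 1 or 3, without Brg1 LPS replicate 1 or 2, and without the libraries numbered above 18000, with adjusted p between 0.0517 and 0.0700. Dex+LPS lowered Ccr3 further, to 26.3, 23.5, 18.3 and 20.7 with control siRNA (log2 change from LPS -3.27, SE 0.254, adjusted p = 5.68e-09). With Brg1 siRNA it fell to 10.3, 10.03, 4.27 and 3.69 (log2 change -4.05, SE 0.254, adjusted p = 4.18e-10). The knockdown difference in Dex+LPS was -1.63 (SE 0.235, adjusted p = 3.04e-05) and the groups did not overlap.

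Ccr2 binds Ccl2 and Ccl7 and directs inflammatory monocytes out of the marrow and into tissue. Vehicle libraries held normalized counts of 148, 169.9 and 154 with control siRNA against 39.1, 39.1 and 37.5 with Brg1 siRNA. The log2 difference was -1.998 (SE 0.523, adjusted p = 0.0103), with no overlap, and it missed the threshold with a pseudocount of 0.5 (adjusted p = 0.0551). LPS lowered Ccr2 to 16.9, 9.26 and 12.8 with control siRNA, a log2 change of -3.53 (SE 0.523, adjusted p = 8.04e-06).

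With Brg1 siRNA the Ccr2 values in LPS were 21.2, 21.2 and 23.9, which lay below all vehicle libraries of that siRNA but did not pass the test (log2 change -0.78, SE 0.523, adjusted p = 0.189). It passed in 4 of 30 alternatives. The difference between the 2 LPS responses was 2.75 (SE 0.740, adjusted p = 0.0204), and the call was lost with a pseudocount of 0.5 (2.79, adjusted p = 0.0858). In LPS the order of the siRNAs was thus the reverse of that in vehicle, with all 3 Brg1 libraries above the control libraries, yet the knockdown difference of 0.76 did not pass (SE 0.523, adjusted p = 0.293).

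Dex+LPS brought Ccr2 to the limit of detection. Control libraries held 0, 0, 4.07 and 3.06 normalized counts, 8 reads in all, and Brg1 libraries 0, 0, 1.07 and 0, a single read. The fall from LPS with Brg1 siRNA, 55 reads to 1, was an 83.9-fold ratio of normalized levels (95% exact counting interval 14.4 to 3374, counting error only). With control siRNA, 35 reads fell to 8, a ratio of 7.05 (3.21 to 17.6). Both passed the test (adjusted p = 0.000187 with control siRNA and 1.18e-06 with Brg1 siRNA). The knockdown difference in Dex+LPS was not detectable at this depth (adjusted p = 0.174). Without control Dex+LPS replicate 1 or replicate 2, each at 0, it was -1.19 (adjusted p = 0.0470 and 0.0474).

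The listed Ly6C monocyte markers were lower in sum with Brg1 siRNA in LPS and Dex+LPS and ran opposite to Ccr2 in the LPS response. Of 5 listed, 4 passed the filter, and the summed level was 17.4 to 32.3 in control vehicle libraries and 13.3 to 20.7 with Brg1 siRNA. It was 3043 to 3575 against 897 to 1245 in LPS and 2743 to 4227 against 1740 to 2626 in Dex+LPS, most of it from Vcan (3244 ± 273 normalized counts in control LPS libraries). Ly6c2 itself was at 3.31 to 10.4 normalized counts in the vehicle libraries. In control siRNA libraries the sum was thus higher with LPS while Ccr2 fell, and in LPS it was lower with Brg1 siRNA while the Ccr2 values were higher. The part of these cells in the Ccr2 result was not tested.

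Ccr1, a receptor for Ccl3 and Ccl5 among others, was also lower with Brg1 siRNA in vehicle. Its vehicle values were 337, 319 and 287 with control siRNA against 172, 185 and 163 with Brg1 siRNA, which did not overlap (log2 difference -0.86, SE 0.151, adjusted p = 0.000438). LPS gave 232, 219 and 219 with control siRNA (log2 change -0.49, SE 0.151, adjusted p = 0.00743) and 191, 176 and 188 with Brg1 siRNA. The Brg1 siRNA change of 0.09 did not pass (SE 0.151, adjusted p = 0.592), and it turned to -0.58 with plain library totals (adjusted p = 0.00214). The knockdown difference in LPS was -0.27 (SE 0.151, adjusted p = 0.181), and that between the LPS responses was 0.58 (SE 0.214, adjusted p = 0.0919). The latter passed in 3 of 30 alternatives. These were DESeq2 (adjusted p = 0.0203), limma on only the groups compared (adjusted p = 0.00881) and limma without control Dex+LPS replicate 2 (adjusted p = 0.0274).

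Dex+LPS lowered Ccr1 to 62.5, 47.0, 67.2 and 79.6 with control siRNA (log2 change -1.81, adjusted p = 5.96e-09) and to 83.5, 75.8, 96.2 and 70.2 with Brg1 siRNA (log2 change -1.18, adjusted p = 1.97e-06). The 2 siRNAs overlapped in Dex+LPS. A log2 difference of 0.36 passed narrowly (SE 0.131, adjusted p = 0.0435), and the call held in only 9 of 30 alternatives. Without control Dex+LPS replicate 2, the lowest library, it was 0.22 (adjusted p = 0.154). Without the libraries numbered above 18000 it was 0.53 (adjusted p = 0.00782). Over the 20 libraries, log2 levels of Ccr1 went with those of Ccr2 (Pearson r = 0.91) and of Ccr3 (r = 0.87), and Ccr2 with Ccr3 (r = 0.83), all on shared libraries and normalization.

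**Figure D2:**
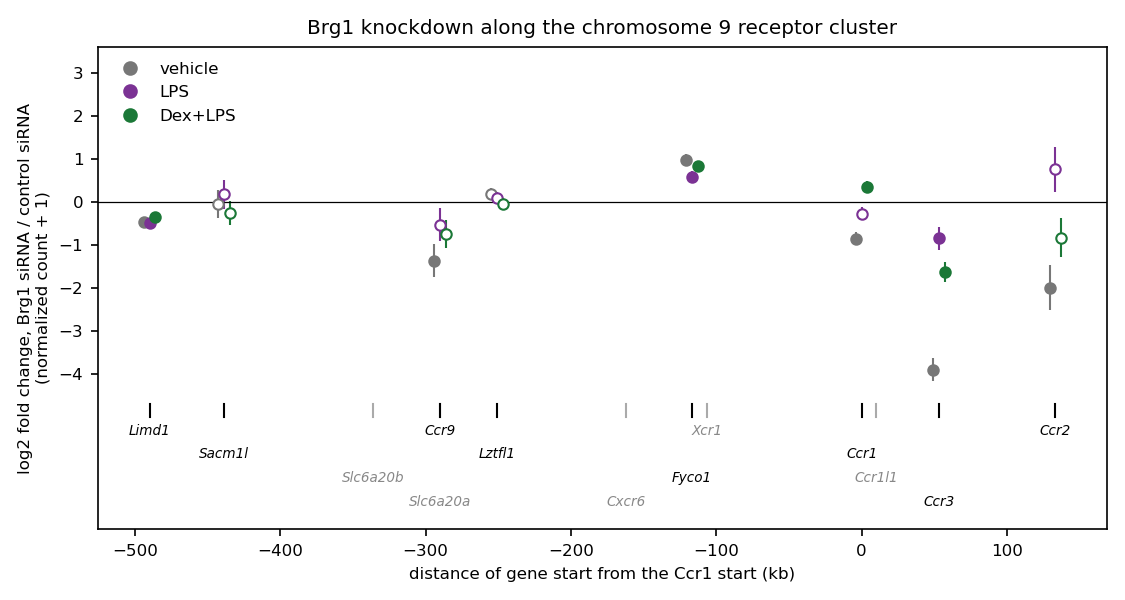
Log2 fold change of Brg1 against control siRNA for the tested genes around the chromosome 9 receptor cluster, by distance of the gene start from the Ccr1 start in kb, in vehicle, LPS and Dex+LPS. Bars are SE, filled points passed the test, and names in grey were below the filter or without a row used here. In vehicle Ccr1, Ccr3 and Ccr2 lay at -0.86, -3.90 and -1.998, and Fyco1 at 0.98.

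The neighbours of the cluster did not all move with these 3 genes. Of 13 listed neighbours of the chromosome 9 receptor genes, 12 were in the table and 6 were tested, with 1 higher and 2 lower in the vehicle knockdown, against 20.1% of all tested genes. Lrrc2, Rtp3 and Ltf on this list lie beside Ccrl2, outside the cluster, and Ltf was among the 6 tested and not called. Ccr9, a receptor for Ccl25, was lower with Brg1 siRNA in vehicle (log2 difference -1.36, adjusted p = 0.0143), on 9 reads against 1. Fyco1, an adaptor for the transport of autophagosomes, was higher in all 3 treatments (0.98, 0.58 and 0.84 on the log2 scale). Limd1, a LIM domain protein, was lower in all 3 (-0.48, -0.49 and -0.35).

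Ccr7 guides dendritic cells to lymph nodes along Ccl19 and Ccl21 and in LPS stood per kilobase above only Ccr2 and Cx3cr1. Control siRNA libraries held normalized counts of 4.18, 7.46 and 14.0 in vehicle, 19.2, 20.8 and 21.4 in LPS, and 2.72, 8.55, 5.09 and 9.95 in Dex+LPS. Brg1 siRNA libraries held 3.99, 7.04 and 3.41, then 13.7, 15.0 and 10.2, then 6.86, 4.46, 6.41 and 10.2. LPS libraries lay above vehicle libraries with either siRNA, and the 2 siRNAs overlapped in vehicle and Dex+LPS but not in LPS.

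The LPS response of Ccr7 was 1.30 on the log2 scale with either siRNA (SE 0.440, adjusted p = 0.0131 with control and 0.0132 with Brg1 siRNA). Without control vehicle replicate 1 it was 0.93 (adjusted p = 0.0836), and without Brg1 vehicle replicate 3 it was 1.13 (adjusted p = 0.0534). With plain library totals it also missed the threshold (0.77 and 0.70 on the log2 scale, adjusted p = 0.125 and 0.158). Dex+LPS lowered Ccr7 with control siRNA (-1.62, SE 0.412, adjusted p = 0.00328), and the Brg1 siRNA change of -0.84 did not pass (SE 0.412, adjusted p = 0.108). No knockdown difference passed, with -0.63 in vehicle (95% interval -1.56 to 0.30), -0.63 in LPS (-1.56 to 0.29) and 0.15 in Dex+LPS (-0.66 to 0.95). Of 7 dendritic cell markers 1 passed the filter, and their sum was 5.47 to 11.7 in vehicle libraries and 14.5 to 55.6 in the LPS and Dex+LPS libraries. Their part in the Ccr7 response was not tested.

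Ccrl2, an atypical receptor that binds chemerin without the usual G protein signalling, was the only gene of the 9 that was higher with Brg1 siRNA in each of the 3 treatments. Vehicle libraries held 44.4, 29.8 and 38.4 normalized counts with control siRNA against 73.3, 75.1 and 85.3 with Brg1 siRNA. LPS libraries held 1129, 1261 and 1315 against 3111, 3411 and 3326, and Dex+LPS libraries 567, 472, 582 and 609 against 1924, 1988, 1937 and 2062. The siRNAs did not overlap in any treatment.

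The knockdown difference of Ccrl2 was 1.05 in vehicle (SE 0.118, adjusted p = 3.89e-06), 1.41 in LPS (SE 0.118, adjusted p = 6.34e-08) and 1.83 in Dex+LPS (SE 0.102, adjusted p = 3.54e-10). All 3 passed in each of the 30 alternatives. In LPS, 4 of the 9 genes passed the knockdown test, 1 higher (Ccrl2) and 3 lower (Ccr3, Cx3cr1 and Fpr2), where 33.1% of all tested genes passed (17.3% higher and 15.8% lower), so the share of these receptors was near the background. In Dex+LPS, 5 of 9 passed, 2 higher (Ccrl2 and Ccr1) and 3 lower (Ccr3, Fpr1 and Fpr2), against 34.3% of all tested genes (19.0% higher and 15.3% lower).

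The LPS response of Ccrl2 was a 32.4-fold rise with control siRNA (log2 change 5.02, SE 0.118, adjusted p = 3.95e-17) and a 41.7-fold rise with Brg1 siRNA (5.38, SE 0.118, adjusted p = 1.22e-17). Their difference of 0.36 did not pass (SE 0.166, adjusted p = 0.187). Dex+LPS lowered Ccrl2 by 2.22-fold with control siRNA (log2 change -1.15, SE 0.110, adjusted p = 9.38e-08) and by 1.66-fold with Brg1 siRNA (-0.73, SE 0.110, adjusted p = 2.91e-05). The difference of the 2 Dex responses was 0.42 (SE 0.156, adjusted p = 0.169), and it passed with DESeq2 on recovered reads (adjusted p = 0.00931).

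**Figure D3:**
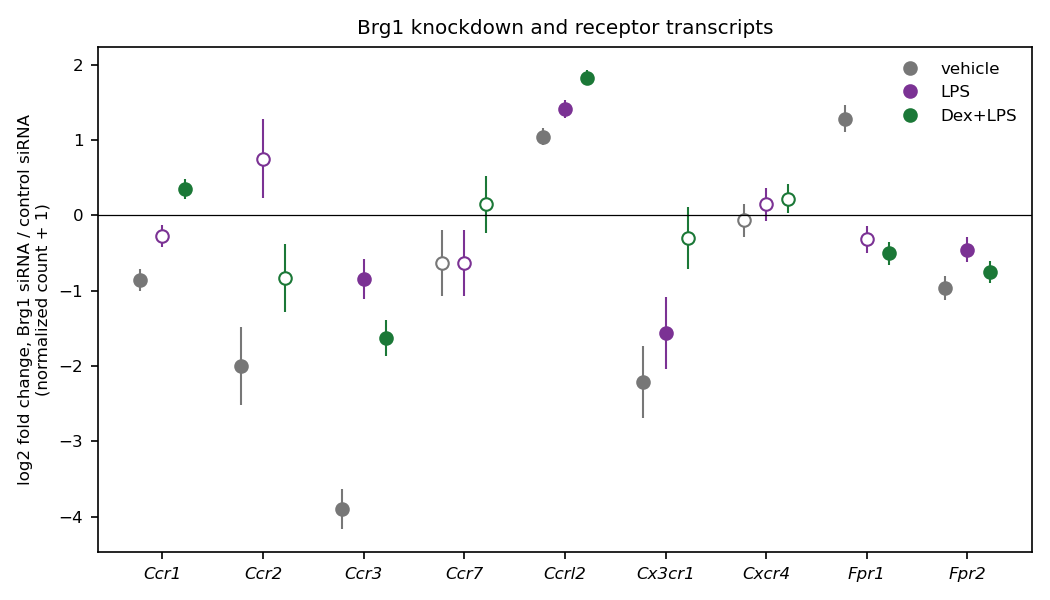
Log2 fold change of Brg1 against control siRNA for the 9 receptor genes in vehicle (grey), LPS (purple) and Dex+LPS (green), with SE. Filled points passed the test. Ccrl2 lay at 1.05, 1.41 and 1.83, Ccr3 was below 0 in all 3, and Cxcr4 lay between -0.07 and 0.22.

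Fpr1, the high-affinity receptor for bacterial formyl peptides, was close to absent before LPS. In vehicle, control siRNA libraries held 0.837, 0 and 0.874 normalized counts, 2 reads in all, and control LPS libraries 871, 948 and 942. The ratio of normalized levels was 1632 (95% exact counting interval 451.4 to 13490, counting error only), on 2 reads in vehicle. With Brg1 siRNA the values were 3.19, 2.35 and 2.56 in vehicle, 10 reads, and 733, 740.2 and 738 in LPS, a ratio of 273 (148 to 571). Both LPS responses passed (adjusted p = 1.82e-18 with control and 2.74e-17 with Brg1 siRNA).

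In vehicle all 3 Brg1 libraries lay above the control libraries for Fpr1, and the ratio of 4.78 had a counting interval of 1.02 to 44.9. The limma test called this difference (log2 difference 1.29, SE 0.177, adjusted p = 3.62e-05). The tests on recovered reads did not, with adjusted p = 0.0805 in edgeR and 0.140 in DESeq2, nor did the authors' deposited table (adjusted p = 0.151). The same low vehicle levels enter the difference between the LPS responses of Fpr1, which was -1.60 (SE 0.250, adjusted p = 0.000300) in the limma test and missed the threshold in edgeR (adjusted p = 0.0567) and DESeq2 (adjusted p = 0.113).

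Where Fpr1 was abundant it was lower with Brg1 siRNA, and the groups did not overlap. In LPS the log2 difference was -0.32 (SE 0.177, adjusted p = 0.183), which missed the threshold here but passed in edgeR and DESeq2 (adjusted p = 0.00801 and 0.00107) and in the authors' deposited table (adjusted p = 0.00109). Dex+LPS libraries held 533, 569.6, 537 and 464 with control siRNA against 382, 382, 360.1 and 356 with Brg1 siRNA. The log2 difference was -0.50 (SE 0.153, adjusted p = 0.0162), and without the libraries numbered above 18000 it was -0.54 (adjusted p = 0.0523). Dex+LPS lowered Fpr1 from its LPS level by 0.81 on the log2 scale with control siRNA (adjusted p = 0.000540) and by 0.99 with Brg1 siRNA (adjusted p = 8.49e-05).

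Fpr2 binds formyl peptides, annexin A1 and serum amyloid A. Its log2 levels went with those of its neighbour Fpr1 over the 20 libraries (Pearson r = 0.99). The LPS difference runs through this r, and 1330 tested genes had r above 0.9 with Fpr2. In vehicle the knockdown differences of the pair had opposite signs (log2 1.29 for Fpr1, on 10 reads against 2, and -0.96 for Fpr2). For Fpr2, control siRNA libraries held 13.4, 9.11 and 14.9 normalized counts in vehicle and 4979.6, 5331 and 4931 in LPS, a log2 change of 8.59 (SE 0.164, adjusted p = 1.82e-18). Brg1 siRNA libraries held 7.18, 6.26 and 4.26 in vehicle and 3678, 3578 and 3853 in LPS, a log2 change of 9.09 (SE 0.164, adjusted p = 7.29e-19). The difference between these responses, 0.51, did not pass (SE 0.232, adjusted p = 0.188).

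Fpr2 was lower with Brg1 siRNA in each treatment, and the siRNAs did not overlap in any. The log2 differences were -0.96 in vehicle (SE 0.164, adjusted p = 0.000318), -0.46 in LPS (SE 0.164, adjusted p = 0.0404) and -0.75 in Dex+LPS (SE 0.142, adjusted p = 0.000450). The LPS call was lost in 8 of 30 alternatives, among them without any single one of the 6 LPS libraries (adjusted p = 0.0658 to 0.106) and without the libraries numbered above 18000 (adjusted p = 0.132). Dex+LPS libraries held 3451, 4218, 3659.7 and 3053 with control siRNA against 2433, 2189, 1986 and 1903. Their fall from LPS was 0.51 on the log2 scale with control siRNA (SE 0.153, adjusted p = 0.0107) and 0.81 with Brg1 siRNA (SE 0.153, adjusted p = 0.000323). The control call was lost with plain library totals (adjusted p = 0.251) and without the libraries numbered above 18000 (adjusted p = 0.0724).

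Of the 31-base words in the annotated Fpr2 transcripts, 43.0% also occur in other genes, mostly Gm5966 and Fpr3, so its count is uncertain where reads were split among these copies. The share was 3.48% or less for the other 8 genes. Neutrophils also carry formyl peptide receptors in abundance. The neutrophil markers, 6 of 10 past the filter, summed to 126 to 176 in vehicle libraries with control siRNA against 175 to 187 with Brg1 siRNA. The sums were 260 to 305 against 298 to 314 in LPS and 388 to 524 against 531 to 617 in Dex+LPS. Of these markers S100a8 (19.2 to 459 over all libraries), S100a9 (25.9 to 98.3), Ngp (17.6 to 67.3), Mmp8 (14.7 to 67.2) and Cxcr2 (3.13 to 15.8) were at 0 in no library. Ly6g and Elane were each at 0 in 18 of 20 libraries, and Mpo in 14. The part of these markers in the formyl peptide receptor results was not tested.

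**Figure D4:**
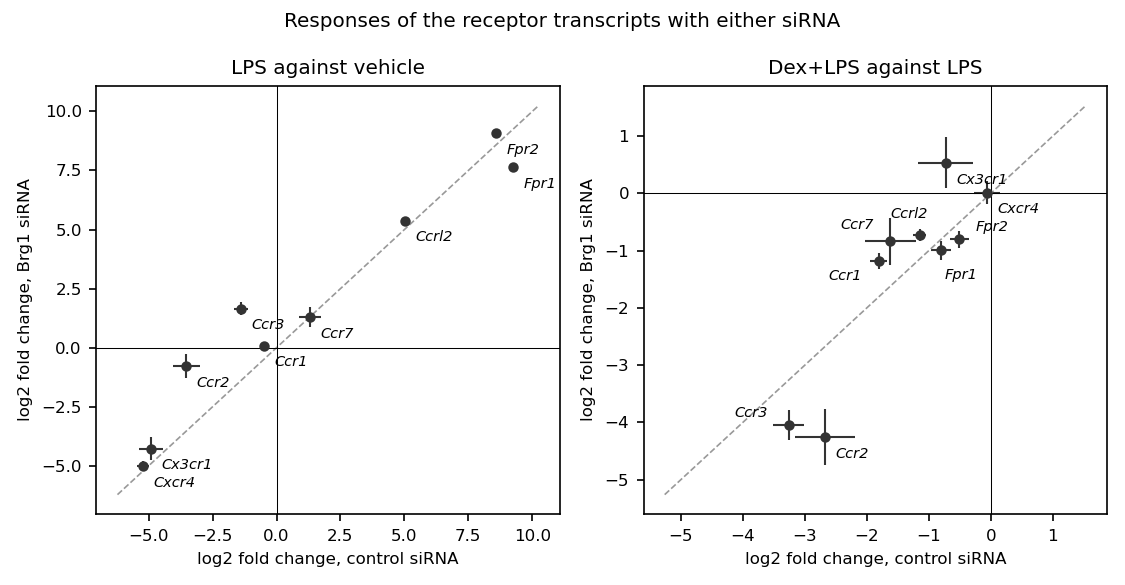
Log2 fold change with control siRNA (x axis) against that with Brg1 siRNA (y axis) for the 9 receptor genes, LPS against vehicle on the left and Dex+LPS against LPS on the right, with SE bars and a dashed line of equality. Ccr3 lies at -1.40 and 1.66 on the left, and on the right Ccr3 (-3.27 and -4.05) and Ccr2 (-2.68 and -4.26) lie farthest below 0.

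Dex+LPS lowered 7 of the 9 genes below their LPS level with control siRNA and 6 of 9 with Brg1 siRNA, and raised none. The background was 48.7% of tested genes with control siRNA (23.4% higher and 25.2% lower) and 44.4% with Brg1 siRNA (21.3% higher and 23.0% lower). Cx3cr1 and Cxcr4, both already low in LPS, did not pass with either siRNA, and Ccr7 did not pass with Brg1 siRNA. The median log2 change over the 9 genes was -1.15 with control siRNA and -0.84 with Brg1 siRNA, against -0.01 and -0.02 over all tested genes. The difference between the Dex responses passed for 0 of 9 genes in limma, where 3.97% of all tested genes passed (2.75% higher and 1.22% lower). At an unadjusted p under 0.05 there were 4 (Ccr1, Ccr2, Ccr3 and Ccrl2), against 16.2% of all tested genes, edgeR called 0 and DESeq2 called 1, Ccrl2. Each LPS library enters both the LPS and the Dex response of its siRNA, with opposite sign.

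The tested ligands of these receptors were mostly raised by LPS. Of 23 listed ligands 16 were tested. With LPS in control siRNA cells 14 were higher and 1 lower, where 73.0% of all tested genes passed (36.0% higher and 37.0% lower). With Dex+LPS 3 were higher and 11 lower than in LPS, against 48.7% (23.4% higher and 25.2% lower). A ligand high only in LPS libraries passes the filter through them, so the filter favours rises with LPS. The largest LPS rises were those of Saa3, a serum amyloid A protein (log2 change 10.7), Ccl5 (9.32) and Ccl3 (7.41). Ccl7 and Ccl2, which act through Ccr2, fell with Dex+LPS by 5.10 and 3.43 on the log2 scale, and Ccl24, an eotaxin of Ccr3, fell by 4.49.

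With Brg1 siRNA 5 of the 16 tested ligands were higher and 4 lower in vehicle, 4 and 3 in LPS, and 5 and 3 in Dex+LPS, where 20.1%, 33.1% and 34.3% of all tested genes passed. The LPS count was near that background. Ccl5 (2.29), Ccl4 (1.53) and Saa3 (1.398) had the largest log2 differences in vehicle. Saa3 was lower in LPS (-1.15), as was Mif (-1.001), a cytokine that binds Cxcr4, and Ccl6, a Ccr1 ligand, was higher (0.89). In Dex+LPS the largest differences were those of Ccl7 (1.57), Ccl4 (1.13) and Ccl6 (1.00), all higher. The LPS response of Ccl5 was smaller with Brg1 siRNA (difference -2.13, adjusted p = 1.86e-08), and so was that of Saa3 (-2.55, adjusted p = 5.79e-08).

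Of 29 other chemoattractant receptors listed, 16 had a row in the deposited table, and the 9 past the filter were tested. Of these, 2 were higher and 2 lower with Brg1 siRNA in vehicle, 4 and 1 in LPS, and 3 and 1 in Dex+LPS, against 20.1%, 33.1% and 34.3% of all tested genes. Cxcr3, a receptor of interferon-induced chemokines, was higher in all 3 (1.57, 1.17 and 1.56 on the log2 scale). C5ar1, the receptor of complement fragment C5a, was lower in vehicle (-0.74) but higher in LPS (0.65, adjusted p = 0.00317). In Dex+LPS its difference of 0.31 did not pass (adjusted p = 0.0840). Gpr183, a receptor for oxysterols, was lower in LPS (-1.09) and Dex+LPS (-0.88).

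All 31 listed genes of signalling downstream of these receptors were tested. In the knockdown, 4 were higher and 7 lower in vehicle (20.1% of all tested genes passed), 9 and 9 in LPS (33.1%), and 11 and 7 in Dex+LPS (34.3%). The regulators of G protein signalling, which speed the shutting off of receptor signals, moved apart from each other. Rgs16 was lower with Brg1 siRNA in all 3 treatments (-1.71, -2.44 and -1.89 on the log2 scale, in vehicle on 20 reads with control siRNA against 3), whereas Rgs1 was higher in LPS (2.15) and Dex+LPS (1.95). Rgs1 had 3898 ± 279 and 4203 ± 626 normalized counts with control siRNA in vehicle and LPS, against 4025 ± 88.1 and 18557 ± 1562 with Brg1 siRNA (SD, n = 3 each). Grk3, a kinase that desensitizes active receptors, was lower in vehicle (-0.95), and Plcb2, a phospholipase activated by G proteins, was higher in LPS (1.17).

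The transcripts most like each receptor over the 20 libraries, by Pearson r of log2 levels, included Plekha2 for Ccr1 (r = 0.958), Cd9 for Ccr2 (0.956) and Myc for Ccr3 (0.960). They were Calhm6 for Ccrl2 (0.994), Cmtm4 for Cx3cr1 (0.970) and Tpcn1 for Cxcr4 (0.996). Fpr1 was nearest to Tbc1d1 (0.997) and Marco (0.995), and Fpr2 to Rrs1 and Msantd3 (both 0.998). The number of tested genes with r above 0.9 was 12 for Ccr3, 37 for Ccr1 and 59 for Ccr2, against 780 for Cxcr4, 973 for Ccrl2, 1270 for Fpr1 and 1330 for Fpr2. For Ccr7 no gene reached that value, the highest being Jpt1 at 0.850. The LPS difference runs through all of these correlations, and the libraries and their normalization are shared.

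In the authors' deposited table, the 9 genes fell on the same side of an adjusted p of 0.05 as here in 59 of 63 values over its 7 comparisons. The 4 that differed were Fpr1 in the vehicle and LPS knockdowns, Ccr1 in the Dex+LPS knockdown (adjusted p = 0.0903 in the authors' deposited table) and Ccr2 in the LPS response with Brg1 siRNA (adjusted p = 0.0155 in the authors' deposited table).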

How the data were processed

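RNA sequencing was done on 20 libraries in 6 groups. Per the labels' protocols the kit prepares stranded mRNA libraries, and rRNA depletion is named as well. The labels hold 4 Dex+LPS replicates per siRNA, 1 more than the series text states. The authors deposited normalized signal per gene, gene counts divided by 1 size factor per library as inferred from the values, with the mean over libraries. Whole reads were recovered from it (99.95% of values above 0 within 0.01 of a whole number, 100.0% within 0.06). The same table holds the authors' log2 fold changes, standard errors and p-values for 7 comparisons. Builds mm10 and GRCm38.p6 and the tools DESeq, DESeq2, R 4.1.0 and Salmon 1.4.0 come from the submitters' processing notes.

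Deposited normalized values were tested as log2(value + 1) with limma-trend (limma 3.58.1, R 4.3.3) in 1 fit of 6 groups without a replicate block, for 9 comparisons, because the unit was not raw counts. The threshold was an adjusted p of 0.05 (Benjamini-Hochberg over 12061 genes). Counting intervals cover counting error only. Alternatives were edgeR 4.0.16 and DESeq2 1.42.0 on recovered reads, pseudocounts 0.5 and 5, no filter, plain library totals, TMM, a fit of only the groups compared, the block, and libraries left out. The pipeline was tested on simulated data. Text names all 9 receptors, the 3 largest called changes at most per other list and comparison, and the 2 genes of highest r. C5ar1 is also given in the other knockdown comparisons. The receptors and the gene lists were chosen with earlier results of these data known. One gene of these lists is not reported here and was left out of their counts. The table holds 1 row without a symbol.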

Additional observations from a re-analysis of the deposited data

Results flagged for a closer look

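In limma the difference between the LPS responses of the 2 siRNAs passed for 3 of the 9 receptors, against 11.4% of all tested genes. For Ccr3 the difference was 3.06 on the log2 scale (limma, adjusted p = 3.35e-05), with control siRNA libraries falling and Brg1 siRNA libraries rising. For Ccr2 it was 2.75 (limma, adjusted p = 0.0204), with the smaller fall in Brg1 siRNA libraries. That call was lost with a pseudocount of 0.5 (limma, adjusted p = 0.0858). For Fpr1 it was -1.60 (limma, adjusted p = 0.000300), on 2 and 10 reads in the vehicle groups. It missed the threshold in edgeR (adjusted p = 0.0567) and DESeq2 (adjusted p = 0.113).

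Ccr2 in Brg1 siRNA Dex+LPS replicate 3 stood apart from its group at 1.07 normalized counts, a single read, with the other 3 libraries at 0. Dixon's test at 95% flags about 1 in 20 groups of continuous values by chance. That rate does not hold here, because with the other 3 libraries at 0 any single read sets the flag.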

How the results depend on the processing

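Over 81 values (9 receptors in 9 comparisons) and 30 alternatives each, 2351 stayed on their side of the threshold, 53 lost the call, 25 gained it and 1 reversed. Of the 2351, 30 changed sign without a call under either setting, in 8 values of Ccr7, Cx3cr1 and Cxcr4, so no direction is to be read from these. The reversal was the LPS response of Ccr1 with Brg1 siRNA, 0.09 here and -0.58 with plain library totals. With that scaling the median log2 change of all tested genes was -0.61 and -0.72 in the LPS responses (control and Brg1 siRNA), against -0.04 and -0.05 here. It was 0.28 and 0.31 in the Dex responses (-0.01 and -0.02 here) and -0.12 in the LPS knockdown (0.01 here). The receptor changes are to be read against these medians. The share of higher among called genes went from 49.3% to 26.2% and 48.7% to 23.2% in the LPS responses, 48.2% to 76.2% and 48.1% to 81.4% in the Dex responses, 52.3% to 31.4% and 55.4% to 36.7% in the LPS and Dex+LPS knockdowns, and 55.9% to 38.1% in the LPS interaction.

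The number of receptors called for the LPS knockdown was 4, and 2 without the libraries numbered above 18000. It was 1 to 5 with 1 library left out, moving by over 1.5 times without each of the 6 LPS libraries. The difference between LPS responses was called for 3 receptors, and for 3 to 5 with 1 library left out, the 5 without control vehicle replicate 2. Under the other alternatives that count was 2 to 4. The difference between Dex responses was called for 0, for 1 with DESeq2 (Ccrl2), 1 without the libraries numbered above 18000 (Cx3cr1, 2.22) and 0 to 1 with 1 library left out (Ccr1 without control Dex+LPS replicate 4). With 1 library left out the other counts were 7 to 7 (vehicle knockdown), 4 to 5 (Dex+LPS knockdown), 8 to 9 and 6 to 7 (LPS responses), and 7 to 7 and 6 to 7 (Dex responses), and the cause of these moves was not tested. Deviations of libraries with the same replicate number correlated at -0.17 to 0.08 in 21 of 22 pairs and at 0.41 for replicate 4 of the Dex+LPS knockdown, both numbered above 18000, so the number was not taken to pair libraries. With the replicate block the counts were 7, 4 and 4 for the 3 knockdowns, 9 and 7 for the LPS responses, 7 and 7 for the Dex responses, and 3 and 0 for the differences between responses. Depth limits Ccr2 in Dex+LPS and Fpr1 in vehicle, each with 10 reads or fewer per group.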
